A study of Mus musculus with 6 samples.

Results

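Hepatocyte growth factor and the chemokine Cxcl12 are 2 mesenchymal signals that guide migrating muscle precursors, and 6 genes of these systems were followed here: the ligands Hgf and Cxcl12, their receptors Met, Cxcr4 and Ackr3, and the Met adaptor Gab1. They were taken by name from the 49585 genes of the count table, with earlier results of these data known, and all 6 were present. Of them, 5 had at least 10 counts in at least 3 libraries, as did 10891 genes in all, and Cxcr4 did not. The libraries were RNA-seq of thoracic lateral plate mesenchyme (LPM), the body wall tissue that forms the sternum, from mouse embryos of strain C57BL/6 at E10.5. KO embryos were Prx1-Cre Ebf3 flox/flox (n = 3 libraries) and heterozygous embryos were Prx1-Cre Ebf3 flox/+ (n = 3 libraries), so that embryos of both genotypes carried Prx1-Cre, at least 1 floxed Ebf3 allele and the R26R Tdtomato reporter. Thoracic wall cells with the reporter active were sorted by fluorescence. Prx1-Cre acts in mesenchyme derived from the lateral plate, whereas the muscle precursors that respond to these ligands come from the somites. Whether a library held 1 embryo or several was not stated, and p-values measure only the spread between these libraries.

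In the embryo, Hgf is secreted by mesenchyme and binds Met, a receptor tyrosine kinase on the muscle precursors at the edge of the somite. Activated Met recruits Gab1, a docking protein that passes the signal on to Ptpn11, PI3-kinase and other effectors, and precursors then leave the somite and migrate into the limbs, diaphragm and tongue. Cxcl12 acts through Cxcr4, a G-protein-coupled receptor on migrating cells, while Ackr3 binds the same ligand, signals through arrestins and removes Cxcl12 from the surroundings. Mesenchyme is known as a source of both ligands.

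None of the 5 tested genes differed between the genotypes at an adjusted p under 0.05, and Cxcr4 had too few counts to test. The values of all 6 overlapped between KO and heterozygous libraries, where 7.46% of the 10891 genes tested did not overlap. The 95% intervals of the 5 tested genes all held 0, and the widest, that of Met, allowed anything between a fold of 0.832 and a fold of 2.54 in KO over heterozygous libraries. What the data did show were the levels of the 6 genes in the sorted cells, with Cxcr4 nearly absent. Cxcl12 and Met also spread markedly between KO libraries, with similar profiles, though Met held few counts.

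The start regions of Met and Cxcl12 are given first, because these were the members whose library profiles lay closest together, with Hgf beside them as the member whose profile lay farthest from that of Met. Each line holds the 50 bases before an annotated RefSeq transcript start (GRCm38.p6, 5′ to 3′ along the gene), with every GC box, GGGCGG or CCGCCC on the other strand, in capitals.
Met (chr6:17463907-17463956, plus strand): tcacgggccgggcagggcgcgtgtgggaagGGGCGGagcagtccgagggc
Cxcl12 (chr6:117168485-117168534, plus strand): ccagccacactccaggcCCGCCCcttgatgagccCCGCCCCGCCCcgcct
Hgf, first start (chr5:16553445-16553494, plus strand): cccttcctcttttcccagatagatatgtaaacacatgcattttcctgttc
Over 300 bases, from 250 before to 50 after the start, Met held 3 GC boxes and Cxcl12 held 5, counting overlapping ones. Neither of the 2 annotated Hgf promoters held any, while each of the 2 Gab1 promoters held 2, the Cxcr4 promoter 3 and the Ackr3 promoter 1. Of 32851 annotated mouse promoters of that length, with 1 chromosome left out, 35.7% held at least 1 GC box. Its presence thus does not set Met and Cxcl12 apart. This motif was picked after the letters were read.

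The core bound by Ebf proteins, CCCNNGGG, which reads the same on both strands, was also searched in the 8 annotated promoters of the 6 genes. It was found in 1, a promoter of Gab1, 231 bases before the start, and in 13.7% of the same 32851 promoters. The match is in capitals in the line that follows.
Gab1 (chr8:80880723-80880769, minus strand): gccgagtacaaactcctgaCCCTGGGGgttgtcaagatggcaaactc
These matches are descriptions of letters in a fixed window and show no binding.

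The 6 libraries held 2088091 (KO library 2) to 3525565 (KO library 3) counts on genes. Of mapped read pairs, 17.6% to 33.5% were counted, with the extremes in the same 2 libraries. Because the members held few counts at this depth, the raw counts of each are given with its counts per 1000000 (CPM, scaled by TMM factors). Ebf3, the deleted gene, stood at 73.6, 42.9 and 60.4 CPM in KO libraries and 94.1, 98.1 and 105 CPM in heterozygous libraries. Its counts cover the whole gene, so exons outside the deleted part are read as well. Every KO library lay below every heterozygous one (log2 fold change -0.74 ± 0.18 SE, unadjusted p = 0.00161, adjusted p = 1 by edgeR's quasi-likelihood test). From a list of 16 lateral plate genes, Prrx1 stood at 297, 321 and 184 CPM in KO and 288, 338 and 314 CPM in heterozygous libraries. Pdgfra, from the same list, stood at 897, 653 and 792 CPM in KO and 974, 908 and 756 CPM in heterozygous libraries. Others of the list were low, such as Twist2, at 6.31 to 14.4 CPM over all libraries. Which cells carried these genes was not tested.

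Hgf (ENSMUSG00000028864) lies on chromosome 5 at 16553495 to 16620152 on the plus strand of GRCm38. KO libraries 1, 2 and 3 held 23, 37 and 64 Hgf counts, or 9.45, 18.2 and 17.6 CPM, and heterozygous libraries 1, 2 and 3 held 63, 50 and 41 counts, or 19.3, 20.6 and 17.4 CPM. KO library 1 was low and the other KO libraries lay within or beside the heterozygous range. Hgf averaged 15.1 ± 4.89 CPM in KO and 19.1 ± 1.63 CPM in heterozygous libraries (SD, n = 3 each). The log2 fold change was -0.33 ± 0.27 (SE, 95% interval -0.93 to 0.26, edgeR unadjusted p = 0.244, adjusted p = 1), and without KO library 1 it was -0.10. Another gene, Gm43489, overlaps Hgf, and the strand used in counting was not stated, so reads of the 2 cannot be told apart there.

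Activation of the secreted Hgf precursor depends on serine proteases and is held in check by the inhibitors Spint1 and Spint2. Of 9 genes listed for these steps, 2 reached the count minimum and neither passed an adjusted p of 0.05. Plat, tissue plasminogen activator, averaged 58.7 ± 17.6 CPM in KO and 51.6 ± 5.99 CPM in heterozygous libraries (SD, n = 3 each, log2 fold change 0.20). Spint2 averaged 4.60 ± 1.49 CPM in KO and 4.64 ± 1.58 CPM in heterozygous libraries. The dedicated activator Hgfac had 2, 0 and 1 counts in KO libraries and 2, 0 and 0 in heterozygous libraries, so it was at the edge of detection in these cells. The activating protease St14 had 3, 1 and 6 counts in KO libraries and 14, 3 and 4 in heterozygous libraries. The plasminogen activator Plau had 9, 9 and 24 counts in KO libraries and 8, 4 and 12 in heterozygous libraries, and Plg, plasminogen, had 12, 0 and 34 in KO libraries and 2, 5 and 0 in heterozygous libraries.

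Met (ENSMUSG00000009376, chromosome 6, 17463800 to 17573980, plus strand) was present at a low level. The KO libraries held 50, 15 and 59 Met counts, or 20.6, 7.40 and 16.2 CPM, and the heterozygous libraries 42, 18 and 24 counts, or 12.8, 7.42 and 10.2 CPM. KO libraries 1 and 3 lay above every heterozygous library, and KO library 2 lay just below the lowest of them. The means were 14.7 ± 6.70 CPM in KO and 10.1 ± 2.71 CPM in heterozygous libraries (SD, n = 3 each). The log2 fold change was 0.54 ± 0.37 (SE, 95% interval -0.27 to 1.35, edgeR unadjusted p = 0.169, adjusted p = 1). It was 0.25 without KO library 1 and 0.82 without KO library 2 (unadjusted p = 0.0238, adjusted p = 1 by the same edgeR test). It was 0.76 without heterozygous library 1 and 0.37 without heterozygous library 2.

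Gab1 (ENSMUSG00000031714, chromosome 8, 80764438 to 80880519, minus strand) was the steadiest gene of the Met branch. It had 163, 107 and 170 counts in KO libraries, or 67.0, 52.8 and 46.6 CPM, and 183, 126 and 140 counts in heterozygous libraries, or 55.9, 51.9 and 59.3 CPM. The KO values surrounded the heterozygous values. Gab1 averaged 55.5 ± 10.4 CPM in KO and 55.7 ± 3.69 CPM in heterozygous libraries (SD, n = 3 each), and the log2 fold change was -0.01 ± 0.17 (SE, 95% interval -0.38 to 0.36, edgeR unadjusted p = 0.944, adjusted p = 1). Its sign changed with the scaling and with the library left out, as it lay at 0. Gm31105 overlaps Gab1, with the same limit as for Hgf.

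Of 18 relatives and signalling partners of Met and Gab1, 16 were tested, with 8 above and 8 below 0 and a median log2 fold change of 0.02, where the median over all genes tested was 0.00061. None passed an adjusted p of 0.05. Grb2, the adaptor that links Met and Gab1 to Ras, averaged 52.8 ± 4.07 CPM in KO and 40.2 ± 4.26 CPM in heterozygous libraries without overlap (SD, n = 3 each, log2 fold change 0.39, edgeR unadjusted p = 0.0303, adjusted p = 1). It was the single listed partner at an unadjusted p up to 0.05, which 2.15% of all genes reached. Lack of overlap was seen in 7.46% of all genes tested. Gab2, a second docking protein, had a log2 fold change of 0.35, and Ptpn11, the phosphatase that docks on Gab1, of -0.18, both with overlapping libraries. Mst1, the ligand of the Met relative Mst1r, had no count in any library.

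**Figure D1:**
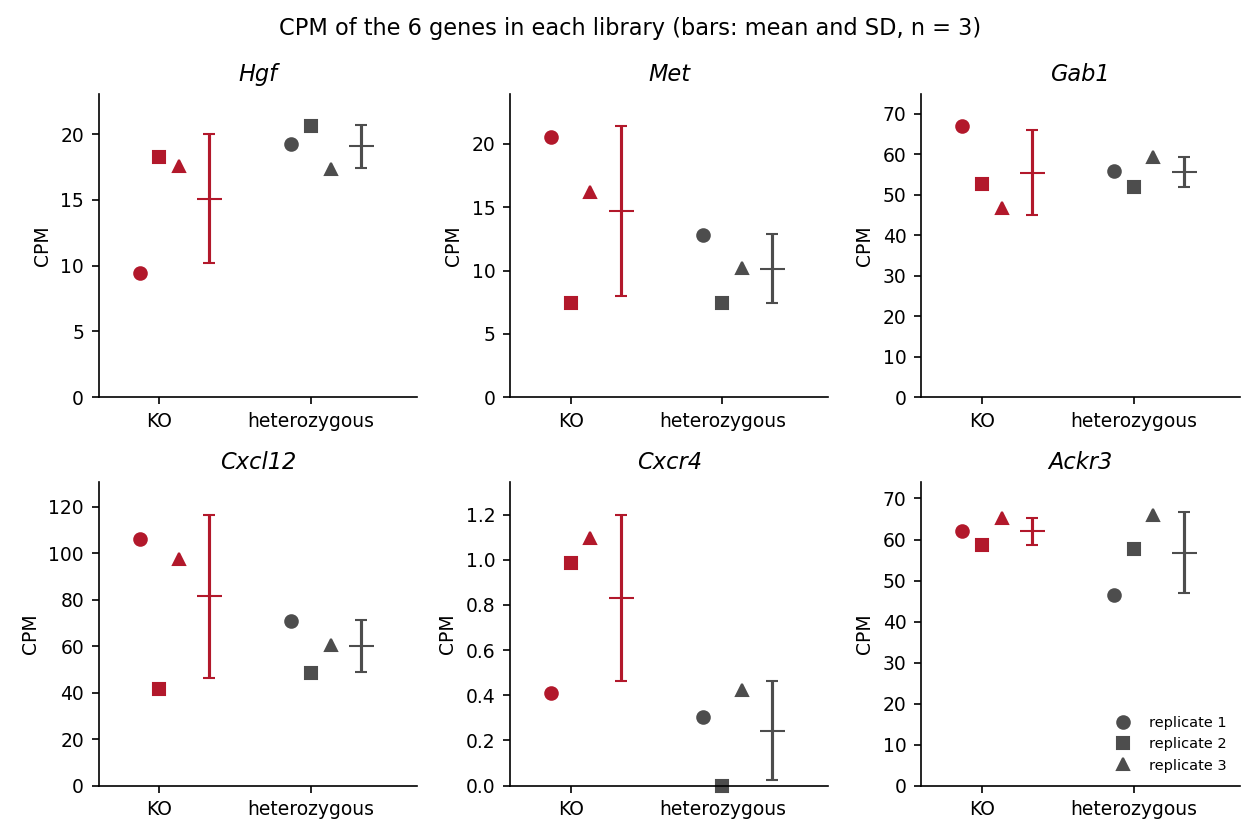
CPM of the 6 genes in each library, with 1 panel per gene, KO on the left and heterozygous on the right, symbols for the replicate numbers, and a bar for mean and SD (n = 3). KO library 2 lies lowest for Met and Cxcl12 while KO library 1 lies lowest for Hgf, and Cxcr4 stays at or below 1.10 CPM.

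Cxcl12 (ENSMUSG00000061353, chromosome 6, 117168535 to 117181367, plus strand) was the ligand with the higher level per exon length, as the RPKM values given later show. It had 258, 84 and 355 counts in KO libraries, or 106, 41.4 and 97.4 CPM, and 232, 118 and 143 counts in heterozygous libraries, or 70.9, 48.6 and 60.6 CPM. As for Met, KO libraries 1 and 3 lay above and KO library 2 below all heterozygous libraries. Cxcl12 averaged 81.6 ± 35.1 CPM in KO and 60.0 ± 11.1 CPM in heterozygous libraries (SD, n = 3 each). The log2 fold change was 0.45 ± 0.28 (SE, 95% interval -0.17 to 1.07, edgeR unadjusted p = 0.140, adjusted p = 1). It was 0.24 without KO library 1 and 0.75 without KO library 2, where the unadjusted p was 0.00143 and the adjusted p 0.812 in edgeR.

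Cxcr4 (ENSMUSG00000045382, chromosome 1, 128588199 to 128592293, minus strand), the signalling receptor of Cxcl12, was nearly absent. It had 1, 2 and 4 counts in KO libraries and 1, 0 and 1 counts in heterozygous libraries. A count of 0 allowed up to 3 counts, or 1.24 CPM, in heterozygous library 2. Summed and scaled by library size, the 7 KO and 2 heterozygous counts were 3.48 times as frequent in KO, and counting error alone spanned 0.663 to 34.3 (exact 95% Clopper-Pearson bounds), so a difference could not be shown at this depth. The ratio was 2.43 to 4.92 when 1 library was left out.

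Ackr3 (ENSMUSG00000044337, chromosome 1, 90203980 to 90216751, plus strand), the scavenging receptor, was by contrast well covered. It had 151, 119 and 238 counts in KO libraries, or 62.1, 58.7 and 65.3 CPM, and 152, 140 and 156 counts in heterozygous libraries, or 46.5, 57.7 and 66.1 CPM. The KO values were close together and lay within the heterozygous range. Ackr3 averaged 62.0 ± 3.30 CPM in KO and 56.8 ± 9.86 CPM in heterozygous libraries (SD, n = 3 each). The log2 fold change was 0.14 ± 0.16 (SE, 95% interval -0.22 to 0.49, edgeR unadjusted p = 0.414, adjusted p = 1), and it was 0.01 without heterozygous library 1 and 0.26 without heterozygous library 3.

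Of 18 genes listed for Cxcr4 and Ackr3 signalling and Cxcl12 turnover, 14 were tested, 8 above and 6 below 0, with a median log2 fold change of 0.02 and none past an adjusted p of 0.05. Grk2, a kinase that phosphorylates activated G-protein-coupled receptors, averaged 71.0 ± 2.46 CPM in KO and 83.9 ± 6.02 CPM in heterozygous libraries without overlap (SD, n = 3 each, log2 fold change -0.24, edgeR unadjusted p = 0.0863, adjusted p = 1). Lack of overlap was seen in 7.46% of all genes tested. The arrestins Arrb1 and Arrb2, which bind activated G-protein-coupled receptors, had log2 fold changes of 0.35 and 0.40 with overlapping libraries. Dpp4, a peptidase that trims and inactivates Cxcl12, had 2, 0 and 7 counts in KO libraries and 7, 2 and 7 in heterozygous libraries. Cxcl11, a further ligand of Ackr3, had no count in any library.

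Of 41 other chemokines and chemokine receptors, 17 had no count in any library and only 1, Ccl25, reached the count minimum. Ccl25, a chemokine known from the thymus and gut, averaged 4.56 ± 1.61 CPM in KO and 4.87 ± 2.43 CPM in heterozygous libraries (SD, n = 3 each, log2 fold change -0.16). All 41 together summed to 11.3 to 19.5 CPM in KO libraries and 8.05 to 13.1 CPM in heterozygous libraries.

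**Figure D2:**
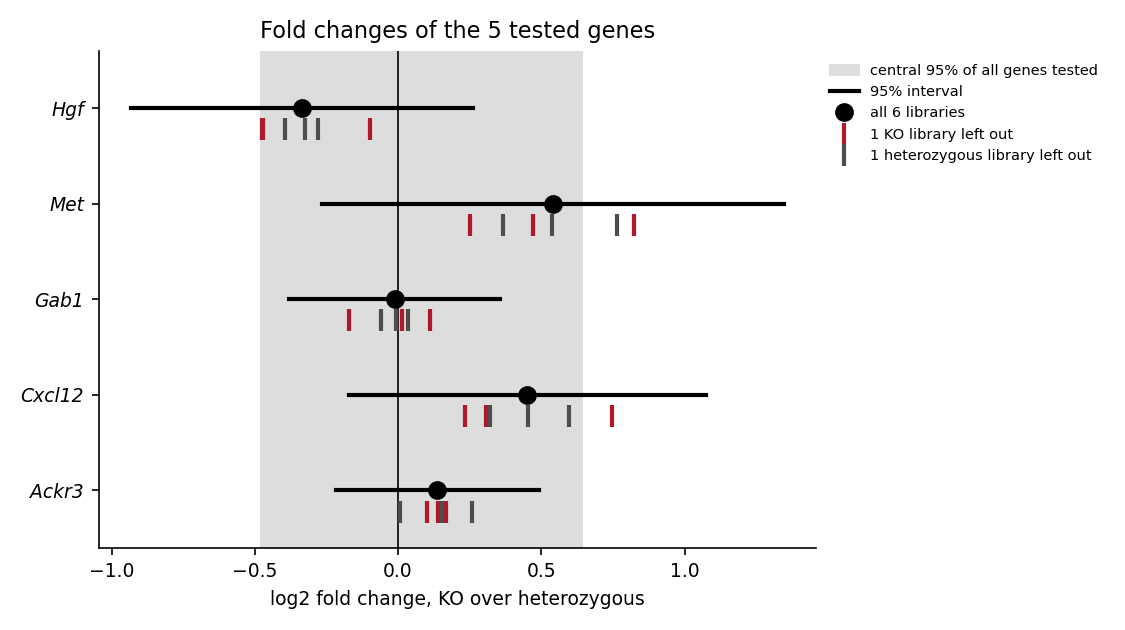
Log2 fold change of KO over heterozygous libraries for the 5 tested genes, with the value over all 6 libraries as a dot, its 95% interval as a line, and the values with 1 library left out as ticks below it (red for a KO library, grey for a heterozygous one). The shaded band holds the central 95% of all 10891 genes, from -0.48 to 0.64, and the 5 dots lie inside it.

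Over the 5 tested members, 3 log2 fold changes were above and 2 below 0, with a median of 0.14, against 5462 above and 5429 below 0 among all genes tested. At an adjusted p under 0.05, 0 of the 5 were called, as were 0 (0%) of all genes in edgeR. At an unadjusted p up to 0.05, 0 of 5 members were called, where 234 (2.15%) of all genes were. In DESeq2 the members' counts were also 0 at both thresholds. By size alone, the fold changes of Met, Cxcl12 and Hgf exceeded in absolute value those of 94.4%, 91.6% and 85.1% of all genes tested, without the precision to tell them from 0.

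The level of different genes was compared on the deposited RPKM, which divides by exon length. In this order from high to low, Ackr3 averaged 4.60 ± 1.93 RPKM in KO and 4.09 ± 0.196 RPKM in heterozygous libraries, and Gab1 2.69 ± 0.755 and 2.75 ± 0.408 RPKM. Cxcl12 followed with 2.61 ± 1.64 RPKM in KO and 1.82 ± 0.558 RPKM in heterozygous libraries. Hgf averaged 0.557 ± 0.277 RPKM in KO and 0.691 ± 0.103 RPKM in heterozygous libraries, Met 0.494 ± 0.293 and 0.329 ± 0.128 RPKM, and Cxcr4 0.118 ± 0.0828 and 0.0330 ± 0.0286 RPKM (SD, n = 3 each throughout). The ranges of all 5 neighbouring pairs overlapped over the 6 libraries, on a scale that moves all genes of a library together. Within libraries, Ackr3 exceeded Gab1, Cxcl12 exceeded Hgf, and Met exceeded Cxcr4 in 6 of 6 libraries, and the other neighbouring pairs kept their order in 5 of 6. Ranked by mean RPKM among the tested genes, Ackr3 stood at the 69.2nd percentile, Cxcl12 at the 48.3rd and Hgf at the 15.2nd. The deposited RPKM is scaled by mapped reads rather than by counted reads, and so carries the unequal share of counted reads with it.

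**Figure D3:**
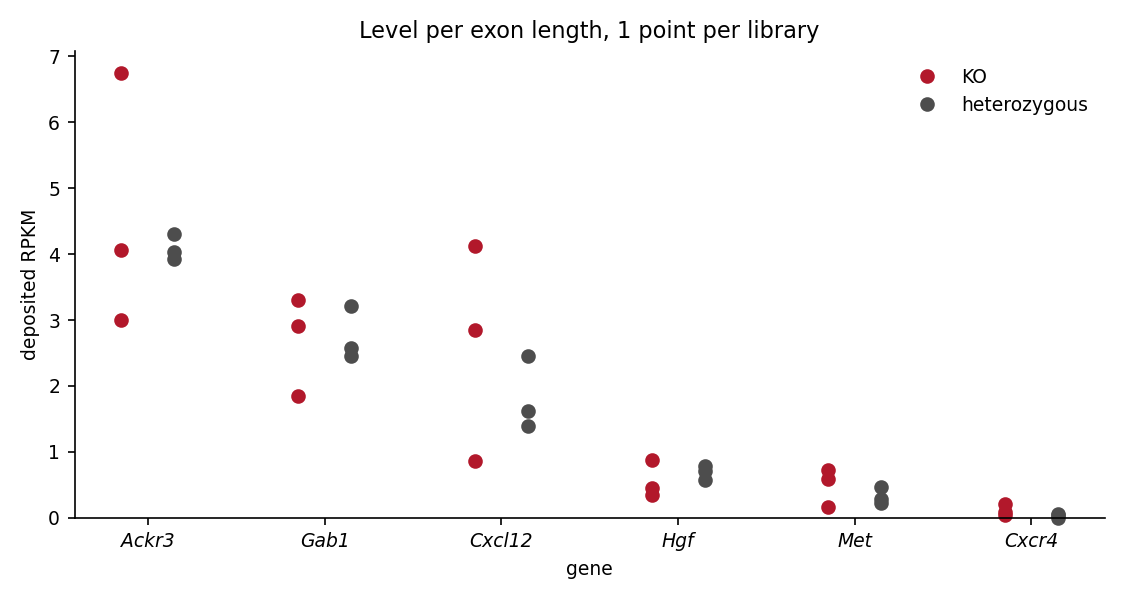
Deposited RPKM (reads per kilobase of exon, scaled to mapped reads) of the 6 genes, 1 point per library, KO left of heterozygous within each gene. Ackr3 spans 3.00 to 6.75 RPKM over the 6 libraries and Cxcr4 0 to 0.210 RPKM.

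Ratios of ligand to receptor per kilobase are given as a description chosen after the values were seen. Hgf was 0.492, 2.64 and 1.16 times Met in KO libraries and 1.60, 2.97 and 1.83 times Met in heterozygous libraries. Hgf was thus above Met in all libraries but KO library 1. Cxcl12 was 0.700, 0.289 and 0.611 times Ackr3 in KO libraries and 0.625, 0.345 and 0.375 times Ackr3 in heterozygous libraries. Per kilobase, the scavenging receptor thus exceeded the ligand in 6 of 6 libraries. This order rests on the summed exon lengths, 8176 bases for Cxcl12 and 3348 bases for Ackr3. In raw counts Cxcl12 was the higher in KO libraries 1 and 3 and heterozygous library 1, and Ackr3 in the others. Which transcripts were expressed was not tested. Against its signalling receptor the order was the other way, with Cxcl12 at 0.868 to 4.12 RPKM and Cxcr4 at 0 to 0.210 RPKM over the 6 libraries.

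The members differed in how much they varied between libraries of 1 genotype. The pooled within-genotype SD of Cxcl12 was 0.56 on the log2 CPM scale, which stood at the 98.8th percentile of the 2001 tested genes of similar level, whose median was 0.19. Its highest KO library was 2.56 times its lowest, and its highest heterozygous library 1.46 times its lowest. Met had an SD of 0.57 (88.9th percentile of 1653 genes of similar level) and Hgf of 0.37 (69.9th percentile of 1859). Gab1 and Ackr3, with SDs of 0.20 and 0.19, lay near the middle of genes of their level. Cxcl12 was thus well covered by counts and still among the most variable genes of its level.

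Cxcl12 and Met had similar profiles over the 6 libraries. Likeness was measured as the root mean square difference of log2 CPM, each gene centred on its mean over the 6 libraries, against 10284 other genes. Cxcl12 was the gene closest to Met, at 0.10, and Met was the third closest to Cxcl12, after 2310015A10Rik at 0.06 and Ebf4 at 0.09. The median over all genes was 0.56 for Met and 0.53 for Cxcl12. Ebf4, a relative of Ebf3, was also second closest to Met, followed by Chn2. Ebf4 itself had a log2 fold change of 0.46 (edgeR unadjusted p = 0.306, adjusted p = 1). The 6 libraries share their depth and composition across genes, and with 6 points the measure is a description. Met held only 15 to 59 counts per library. The measure takes no account of counting error, so the exact ranks are not resolved at this depth.

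Hgf ran differently from both. Its difference from Met was 0.81, which placed Met 9998th of 10284 genes, and its difference from Cxcl12 was 0.77. The genes closest to Hgf were Rida, Lztfl1 and Cdkn2d, at 0.09 to 0.10. Those closest to Gab1 were Cipc, Rps6ka2 and Ankrd26, at 0.03 to 0.04, and those closest to Ackr3 were Sema3f, Mus81 and Ppp2r3d, at 0.04.

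**Figure D4:**
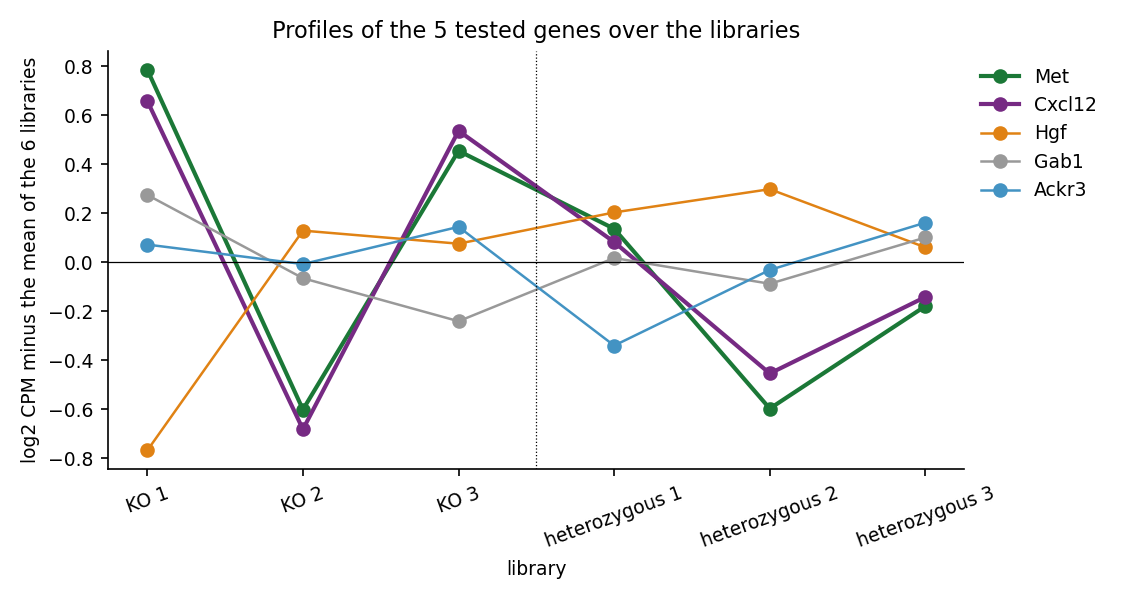
Log2 CPM of the 5 tested genes in each library minus the gene's mean over the 6 libraries, KO libraries to the left of the dotted line and heterozygous libraries to its right. Met and Cxcl12 overlie each other, from 0.79 and 0.66 in KO library 1 to -0.60 and -0.68 in KO library 2, while Hgf is at -0.77 in KO library 1.

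Markers of other cells, and immediate early genes, which mark no cell type, moved between the same libraries. A list of 8 hepatic serum protein genes summed to 111, 11.8 and 298 CPM in KO libraries 1, 2 and 3 and 42.2, 32.2 and 82.6 CPM in heterozygous libraries, with all 6 tested genes above 0 at a median log2 fold change of 1.52, and none at 0 counts throughout. KO library 2 was lowest in this list, as it was for Cxcl12 and Met, and it also held the fewest counts on genes. The highest was KO library 3 in this list but KO library 1 for Cxcl12 and Met. For Met, heterozygous library 2 was nearly as low, at 7.42 CPM against 7.40 CPM in KO library 2. The 22 immediate early genes summed to 763, 498 and 1318 CPM in KO libraries and 524, 602 and 551 CPM in heterozygous libraries, and 14 of the 15 tested were above 0, with a median of 0.83. Egr1, an immediate early transcription factor, averaged 62.8 ± 48.0 CPM in KO and 18.3 ± 5.99 CPM in heterozygous libraries (SD, n = 3 each). Of the 12 neural and neural crest genes 4 were tested, with sums of 123, 44.9 and 181 CPM in KO libraries and 80.4, 26.0 and 43.2 CPM in heterozygous libraries, and Sox2 at 0. The part of these lists in the spread of Cxcl12 and Met was not tested.

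Endothelial cells, which are known to carry Cxcr4, Ackr3 and Cxcl12, were represented as well. The 13 endothelial genes summed to 185, 108 and 300 CPM in KO libraries and 156, 76.3 and 256 CPM in heterozygous libraries, 8 of them tested, 7 above and 1 below 0, with a median log2 fold change of 0.37 and none at 0. Beside these sums stood Cxcr4 counts of 1, 2 and 4 in KO libraries and 1, 0 and 1 in heterozygous libraries, too few to set an order, and the part of endothelial cells in them was not tested. Red blood cell genes summed to 1.23 to 23.6 CPM in KO and 0.42 to 4.95 CPM in heterozygous libraries, with Hbb-bs at 0, and white blood cell genes to 0.493 to 10.2 CPM and 1.65 to 4.66 CPM. Epithelial genes summed to 244 to 302 CPM in KO and 248 to 409 CPM in heterozygous libraries, with Krt5 at 0. Most of each sum came from the keratins Krt8, at 121 to 213 CPM over all libraries, and Krt18, at 76.5 to 141 CPM. Epcam, from the same list, stood at only 1.65 to 7.95 CPM. The epithelial sums are thus no measure of epithelial cells, and which cells carried Krt8 and Krt18 was not tested. Mesothelial genes summed to 182 to 217 CPM in KO and 150 to 220 CPM in heterozygous libraries, with Msln at 0. In sorted bulk cells, fewer cells of a type and less RNA per cell cannot be told apart.

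The cells that read these guidance signals were barely represented among the sorted cells. Pax3, which marks migrating muscle precursors and is needed for their Met expression, had 5, 3 and 15 counts in KO libraries and 7, 6 and 5 in heterozygous libraries. Lbx1, a homeobox factor of the migrating precursors, had 3, 6 and 11 counts in KO libraries and 3, 1 and 8 in heterozygous libraries. Pax7 had 1 count in KO library 2 alone, Myod1 had 1 count in each of heterozygous libraries 1 and 2 alone, and Myf6 had none. Of the 16 genes listed for muscle precursors 5 were tested, 3 above and 2 below 0, with a median log2 fold change of 0.18, and none passed an adjusted p of 0.05. Among the tested ones, Meox1, a homeobox factor of the somite, averaged 13.3 ± 6.31 CPM in KO and 10.6 ± 2.20 CPM in heterozygous libraries (SD, n = 3 each, log2 fold change 0.38). Of the 16 lateral plate genes all were tested, 5 above and 11 below 0 at a median of -0.16, with sums of 2054 to 2369 CPM in KO and 2369 to 2480 CPM in heterozygous libraries. Among them Foxf1, a splanchnic mesoderm factor, averaged 12.8 ± 4.49 CPM in KO and 6.70 ± 0.328 CPM in heterozygous libraries (SD, n = 3 each, log2 fold change 0.96, edgeR unadjusted p = 0.0160, adjusted p = 1). Hand2, a factor of limb and lateral plate mesoderm, averaged 72.2 ± 12.2 CPM in KO and 96.4 ± 21.8 CPM in heterozygous libraries (SD, n = 3 each, log2 fold change -0.42, edgeR unadjusted p = 0.0452, adjusted p = 1).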

How the data were processed

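Sorted Tdtomato-positive thoracic cells were sequenced by the authors from SMARTer libraries on a NextSeq-500. The deposited values are gene counts and RPKM that the authors made per library in CLC with Ensembl genes (49585 genes), version not given in the sources used here. The labels name mm9, but 91.1% of genes with 1 GENCODE M21 span have GRCm38 coordinates, the build used here. The authors' own fold changes and p-values, and their list of 359 genes chosen with them, were not used. The authors' deposited mapping table (other values: reads per library) gave 83.4% to 88.4% of reads mapped.

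The deposited RPKM equals whole fragments per exon length and mapped pairs (within 0.01 of a fragment) for 77.4% of genes above 0. These fragments can exceed the deposited counts, by 1 to 5 per library for Hgf and 1 to 7 for Gab1. Hgf and Gab1 are the members that another gene overlaps. Met, Cxcl12, Cxcr4 and Ackr3, without an overlapping gene, had no extra fragments in any library. What the extra fragments are was not stated and was not tested.

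Counts were tested with edgeR 4.0.16 (R 4.3.3; TMM, quasi-likelihood, two-sided, Benjamini-Hochberg over the 10891 genes that reached 10 counts in 3 or more libraries). The script was tested on simulated data. An exact permutation test of 3 against 3 libraries cannot go below 0.1 and was not used. Alternatives were DESeq2 1.42.0, limma 3.58.1 voom, other scalings and filters, RPKM with pseudocounts, the replicate block, each library left out, and, chosen after seeing the data, the fragments recovered from RPKM. Named genes were the 6 members, up to 3 genes of smallest unadjusted p in each list, and the 3 genes most like each tested member (at least 5 CPM on average). Not every gene so picked is described. Hbb-b1 and Itgam, both listed, were not matched in the table. St14, Plau, Plg, Hgfac, Dpp4, Pax3, Lbx1, Pax7, Myod1, Prrx1, Pdgfra, Twist2 and the genes at 0 were named after their values were seen. The members and lists were chosen with earlier results of these data known.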

Additional observations from a re-analysis of the deposited data

How the results depend on the processing

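Every log2 fold change of Hgf, Met, Cxcl12 and Ackr3 kept its sign under all 17 alternatives, and no member passed an adjusted p of 0.05 under any of them. That of Gab1 crossed 0: it was 0.00066 with library size alone, 0.0083 with upper quartile factors and -0.17 to 0.11 with 1 library left out. With RPKM and a pseudocount of 1, which shrinks low genes, the values were -0.13 for Hgf, 0.15 for Met, 0.25 for Cxcl12 and 0.08 for Ackr3. By edgeR's quasi-likelihood test over all genes, 0 members reached an unadjusted p up to 0.05 in the fit reported, 1 (Cxcl12, unadjusted p = 0.0103, adjusted p = 0.941) without the low-count filter, and 0 to 2 with 1 library left out, the 2 being Cxcl12 and Met without KO library 2.

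Replicate numbers were shared by the genotypes, but same-numbered libraries deviated together with r = 0.43, 0.19 and 0.01, so the numbers were not taken to pair the samples, and not every library correlated best with its own number. With the replicate block, 2 genes were higher in KO and 0 lower at an adjusted p under 0.05, 250 higher and 243 lower at an unadjusted p up to 0.05, and 1 member (Cxcl12, unadjusted p = 0.0293 in edgeR) was among the genes at that unadjusted threshold.

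Over all genes, 0 were higher in KO at an adjusted p under 0.05, against 30 without the filter, 1 and 5 with RPKM and pseudocounts of 1 and 0.1, and 0 to 1 with 1 library left out. The 0 lower in KO became 8 without the filter and stayed at 0 with 1 library left out. At an unadjusted p up to 0.05, 150 were higher, against 84 in DESeq2, 374 without the filter, 59 and 46 with RPKM and pseudocounts of 1 and 0.1, and 80 to 303 with 1 library left out. Those lower were 84, against 41 in DESeq2, 197 without the filter, 12 and 15 with RPKM and pseudocounts of 1 and 0.1, 50 with the recovered fragments, 51 with the counts of the genes so recovered, and 47 to 446 with 1 library left out. The recovered fragments cover fewer genes; the cause of the other moves was not tested. Counts of 0 to 4 limit what can be said of Cxcr4.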
